A study of Homo sapiens with 30 samples.

Results

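Transcripts of the BET and P-TEFb machinery were followed in 2 multiple myeloma cell lines, OPM2 and H929, after treatment with dBRD9-A, a degrader of the bromodomain protein BRD9. The 7 genes, BRD2, BRD3, CDK9, CCNT1, CCNT2, HEXIM1 and LARP7, were taken by gene symbol, and where a symbol had several transcript rows the row with the highest mean count was used. They are 7 of 25680 symbols in the deposited files, and all 7 were among the 16408 genes that passed the filter on low counts. The groups were OPM2 cells with 100 nM dBRD9-A, OPM2 cells with the solvent DMSO, H929 cells with 100 nM dBRD9-A and H929 cells with DMSO, with 3 libraries each. The time was 24 h in all groups, DMSO included. Both are established lines grown in culture, so each stands for 1 tumour, and no allele or transgene is named for these 12 libraries. Another 18 of the 30 samples listed were not analysed here. Bulk RNA was measured, so a change in the share of cells that hold a transcript and a change in RNA per cell cannot be told apart.

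BRD2 and BRD3 belong to the BET family, whose paired bromodomains bind acetylated histones and whose extraterminal domain gives the family its name. BRD9, the protein that dBRD9-A is aimed at, also has a bromodomain but is a subunit of a chromatin remodelling complex and no BET protein. P-TEFb, the kinase CDK9 with cyclin T1 (CCNT1) or cyclin T2 (CCNT2), phosphorylates RNA polymerase II and the factors that hold it near the start of genes, which releases it into elongation. Much of the P-TEFb in a cell is kept inactive on the 7SK RNA, where HEXIM1 inhibits the kinase and LARP7 protects the RNA. In many cell types HEXIM1 RNA rises when BET proteins are inhibited, and it is used as a readout of such drugs.

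The stretches just upstream of HEXIM1 and BRD3, the 2 members called with dBRD9-A, are shown because they differ in their core promoter letters. Sequences are from RefSeq, build GRCh38.p14, and hold the 250 bases before the annotated start, on the strand of the gene. Capitals mark 4 motifs searched on both strands: the TATA box, spelled TATAAA, the CCAAT box, spelled as it is named, the GC box, spelled GGGCGG, and the E-box, spelled CACGTG.

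HEXIM1, chr17:45148225-45148474, plus strand: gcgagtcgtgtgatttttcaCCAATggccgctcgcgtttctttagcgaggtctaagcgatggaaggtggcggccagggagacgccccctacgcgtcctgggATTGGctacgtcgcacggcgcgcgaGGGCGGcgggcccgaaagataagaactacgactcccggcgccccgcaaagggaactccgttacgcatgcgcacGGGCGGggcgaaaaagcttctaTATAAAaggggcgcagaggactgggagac

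BRD3, chr9:134068027-134068276, minus strand: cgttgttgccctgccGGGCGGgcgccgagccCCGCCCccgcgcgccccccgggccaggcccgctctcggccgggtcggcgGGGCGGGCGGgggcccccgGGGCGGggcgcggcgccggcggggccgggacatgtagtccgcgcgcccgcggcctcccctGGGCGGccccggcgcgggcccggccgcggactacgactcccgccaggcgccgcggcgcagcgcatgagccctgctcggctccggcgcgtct

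The HEXIM1 window holds 1 TATAAA, 2 CCAAT and 2 GGGCGG matches at a GC content of 62.4%. The BRD3 window holds 6 GGGCGG matches, of which one pair overlaps, and none of the other letters, at a GC content of 86.8%. Among all 35116 RefSeq windows of this length, 10.7% hold TATAAA, 32.0% CCAAT, 42.6% GGGCGG and 6.35% CACGTG, and the median GC content is 58.0%. Of the windows of the 7 genes, only that of HEXIM1 holds TATAAA and only 1 of CCNT1 holds CACGTG. BRD2, CCNT1 and LARP7 have more than 1 window each. Among so few windows, 1 match lies near the shares of all windows and is no result about these genes. A match describes these letters and shows no binding.

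The libraries held 24524193 to 76600945 counts over genes, and 1 of them stood apart. OPM2 dBRD9-A replicate 2 had the lowest total. Its log2 levels deviated from the group mean with an SD of 0.60 over 11234 genes, against 0.098 to 0.17 in the 9 libraries of the other groups, and across genes the deviation went with transcript GC content (Spearman -0.68). Such trends were not limited to it: Spearman values were 0.61 and 0.67 in replicates 1 and 3 of its group, whose mean includes it, and -0.58, 0.62 and -0.20 in H929 dBRD9-A replicates 1, 2 and 3, and they ran between -0.43 and 0.37 in the 6 DMSO libraries. Results that rest on OPM2 dBRD9-A replicate 2 are therefore given with and without it. The plasma cell genes fit the label: 8 of 8 averaged at least 1 CPM (the count scaled to the library total) in each group, with sums of 3821 to 5221 CPM in OPM2 with dBRD9-A, 5249 to 6036 in OPM2 with DMSO, 5224 to 5476 in H929 with dBRD9-A and 6126 to 6797 in H929 with DMSO. These sums were lower with dBRD9-A in both lines. Of the 8 genes, 2 were called lower in OPM2, against 7.34% of all genes, and 2 in H929, against 5.67%, and none higher. Without OPM2 dBRD9-A replicate 2, 1 was called higher and 3 lower in OPM2, against 16.1% and 15.6% of all genes. In H929 that fit gave 0 higher and 4 lower, against 19.2% and 16.5%. SLAMF7 fell in OPM2 (log2 fold change -1.63, adjusted p = 4.5e-05, edgeR) and in H929 (-0.62, 0.016). MZB1 fell in OPM2 (-1.57, 0.00027) and IRF4 in H929 (-0.72, 0.045). Genes not called went both ways, with XBP1 at 0.25 and SDC1 at -0.24 in OPM2. With replicate 2 left out, XBP1 was called higher in OPM2 (0.28, adjusted p = 0.024, edgeR) and SDC1 turned to 0.18, not called. The part of the plasma cell genes in the results below was not tested. Marker sums of B, T and NK, myeloid, stromal and erythroid cells stayed at or below 10.6 CPM, apart from T and NK markers in H929, at 37.8 to 40.1 CPM with dBRD9-A and 24.5 to 26.5 with DMSO. Myeloid marker sums in H929 were 5.12 to 10.6 CPM with dBRD9-A and 1.57 to 4.16 CPM with DMSO. CSF1R averaged 7.76 ± 2.64 CPM in H929 with dBRD9-A and 2.45 ± 1.33 CPM with DMSO and was called higher (adjusted p = 0.046, edgeR), as was CD2 there (0.36 and 0.065 CPM, adjusted p = 0.037). COL1A1 was called higher in both lines, at means of 0.30 CPM with dBRD9-A and 0.069 CPM with DMSO in OPM2 (adjusted p = 0.025, edgeR) and 1.81 and 0.22 CPM in H929 (adjusted p = 0.0016). The part of these markers in the results below was not tested either. Nearly all of the T and NK marker sum in H929 was CD3E, while CD3D averaged under 0.02 CPM in every group, and COL1A2 and LUM had no count in any library.

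BRD9 RNA itself was 76.3 ± 8.04 CPM in OPM2 with dBRD9-A and 89.7 ± 4.02 CPM in OPM2 with DMSO (log2 fold change -0.23, adjusted p = 0.24, edgeR quasi-likelihood test). In H929 it was 63.6 ± 6.80 CPM with dBRD9-A and 87.7 ± 13.5 CPM with DMSO (-0.46, adjusted p = 0.039). A degrader acts on the protein, so this transcript does not check the treatment.

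Per transcript length, LARP7 led in OPM2 and CDK9 in H929, and BRD2 was among the 2 lowest in every group. Levels across genes are given as TPM, the deposited count per transcript length scaled to the library. In OPM2 with dBRD9-A, LARP7 stood at 138 ± 55.8 TPM, CCNT1 at 48.7 ± 0.21, HEXIM1 at 36.8 ± 4.84, CDK9 at 35.8 ± 11.7, CCNT2 at 23.3 ± 5.94, BRD3 at 8.94 ± 1.11 and BRD2 at 8.30 ± 4.12 (SD, n = 3). There the neighbours HEXIM1 and CDK9, CDK9 and CCNT2, and BRD3 and BRD2 overlapped between libraries. The place of CDK9 in this order rests on replicate 2, where it was at 22.29 TPM, below HEXIM1 (31.35) and CCNT2 (30.09). In replicates 1 and 3 CDK9 (42.04 and 43.14 TPM) lay above HEXIM1 (38.53 and 40.55) and CCNT2 (19.14 and 20.64), as with DMSO. BRD2 lay below BRD3 in replicates 1 and 2 and above it in replicate 3. In OPM2 with DMSO the order was LARP7 at 79.8 ± 0.77 TPM, CCNT1 at 42.02 ± 1.55, CDK9 at 34.6 ± 1.61, HEXIM1 at 26.4 ± 1.43, CCNT2 at 17.0 ± 0.63, BRD2 at 8.42 ± 0.19 and BRD3 at 6.86 ± 0.84, and no neighbours overlapped.

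In H929 with dBRD9-A, the kinase CDK9 stood at 54.4 ± 1.73 TPM, LARP7 at 52.2 ± 7.31, CCNT1 at 32.0 ± 5.36, HEXIM1 at 30.3 ± 3.52, BRD3 at 15.2 ± 1.82, CCNT2 at 10.6 ± 2.14 and BRD2 at 10.2 ± 1.27. The pairs CDK9 and LARP7, CCNT1 and HEXIM1, and CCNT2 and BRD2 overlapped. With DMSO, CDK9 stood at 48.2 ± 3.01 TPM, LARP7 at 42.4 ± 3.91, CCNT1 at 29.5 ± 3.45, HEXIM1 at 23.6 ± 0.91, BRD3 at 10.2 ± 1.41, CCNT2 at 10.1 ± 0.86 and BRD2 at 8.76 ± 0.98. There CDK9 and LARP7 overlapped, as did BRD3 with CCNT2 and CCNT2 with BRD2. The BRD2 level is uncertain in all 4 groups: the files list 35 rows for it, 5 transcripts repeated 7 times, of which 1 copy carries nearly all counts: the row used averages 1155 counts and the rows of the other copies at most 39.9. How reads that match several copies were counted is not given in the labels.

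**Figure D1:**
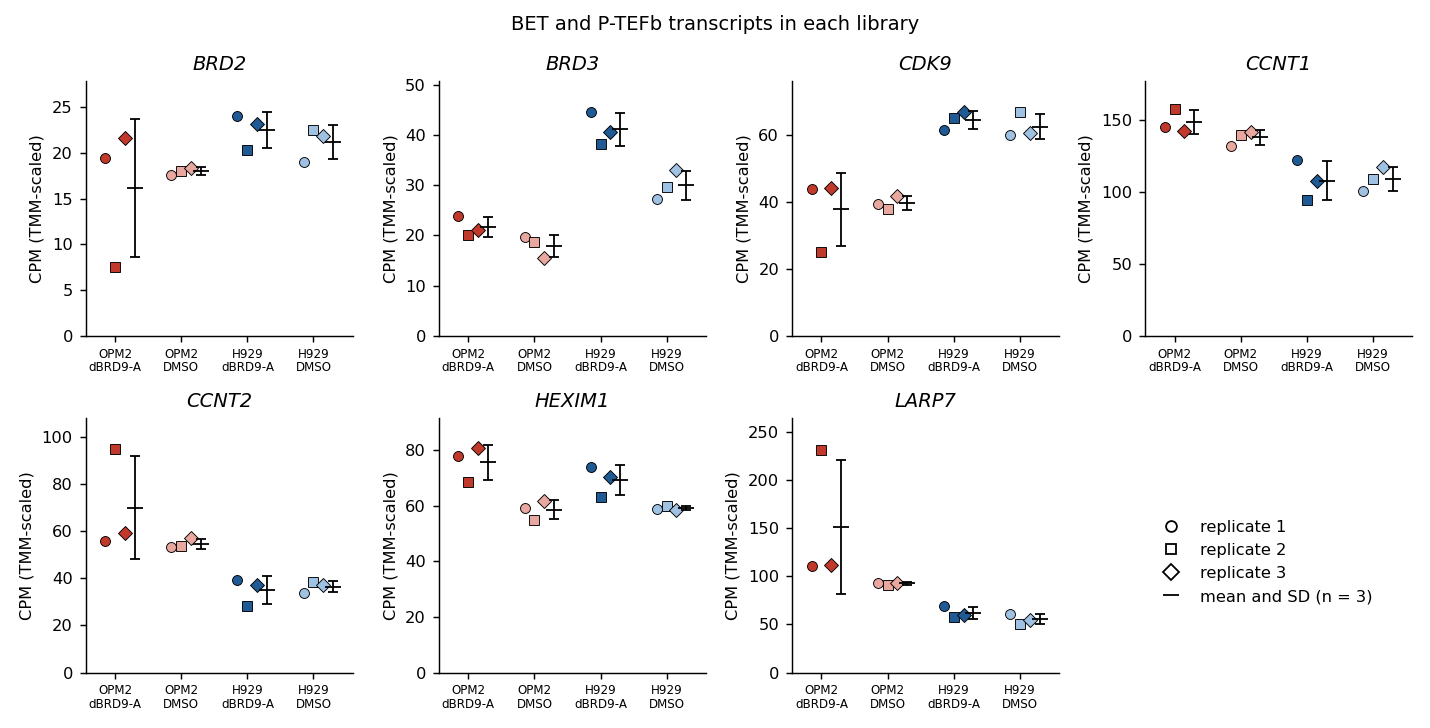
CPM of the 7 transcripts (TMM-scaled) in each of the 12 libraries, by group, with the mean and SD of 3 replicates beside the points. Squares of OPM2 dBRD9-A lie far from the other 2 replicates for LARP7 (232 against 111.1 and 111.5) and BRD2 (7.58 against 19.4 and 21.6), while all dBRD9-A points of HEXIM1 lie above the DMSO points of the same line.

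HEXIM1, the inhibitor of P-TEFb, was higher with dBRD9-A in every library of both lines, and the increase passed the test in OPM2. In OPM2 it was at 77.8, 68.6 and 80.7 CPM with dBRD9-A, in replicates 1, 2 and 3, against 59.2, 55.0 and 61.8 CPM with DMSO. In H929 it was at 74.0, 63.4 and 70.5 CPM with dBRD9-A, against 58.7, 60.1 and 58.7 CPM with DMSO. The groups did not overlap in either line, and the DMSO libraries of the 2 lines lay among each other. The fold change was 1.29 in OPM2 (95% interval 1.103 to 1.51; log2 0.37 ± 0.10 SE, adjusted p = 0.031, edgeR) and 1.17 in H929 (1.001 to 1.37; log2 0.23 ± 0.10, adjusted p = 0.18). Without OPM2 dBRD9-A replicate 2 both were called, at log2 0.42 (adjusted p = 0.0018) in OPM2 and 0.26 (adjusted p = 0.017) in H929. The OPM2 call held in 9 of 22 alternative settings, with log2 values of 0.31 to 0.42 and adjusted p of 9.5e-05 to 0.14. It ended when any 1 library was left out other than replicate 2 of OPM2 dBRD9-A or of H929 dBRD9-A. The H929 value passed in 3 of 22, with log2 values of 0.21 to 0.33.

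BRD3 rose in H929. It was at 44.6, 38.2 and 40.5 CPM with dBRD9-A, against 27.2, 29.6 and 32.99 CPM with DMSO. Every dBRD9-A library lay above every DMSO library. The fold change was 1.37 (1.13 to 1.67; log2 0.46 ± 0.13, adjusted p = 0.038, edgeR), and log2 0.49 (adjusted p = 0.0022) without OPM2 dBRD9-A replicate 2, which enters the estimate of the spread. The call held in 14 of 22 alternative settings, with log2 values of 0.43 to 0.57 and adjusted p of 0.0022 to 0.13. Leaving out replicate 1 or 2 of OPM2 DMSO, replicate 1 or 2 of H929 DMSO, or replicate 1 or 3 of H929 dBRD9-A ended it. In OPM2 it was at 23.8, 20.1 and 21.1 CPM with dBRD9-A, against 19.7, 18.7 and 15.5 CPM with DMSO. These groups did not overlap but came close to it, and the log2 fold change of 0.27 ± 0.13 did not pass (adjusted p = 0.17; 0.31 and 0.056 without OPM2 dBRD9-A replicate 2).

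BRD2, the other BET member, gave no call. H929 cells had 24.1, 20.3 and 23.2 CPM with dBRD9-A, against 19.0, 22.5 and 21.8 CPM with DMSO, and the groups overlapped (log2 fold change 0.09, 95% interval -0.51 to 0.69). OPM2 cells had 19.4, 7.58 and 21.6 CPM with dBRD9-A, against 17.6, 18.1 and 18.4 CPM with DMSO. Replicate 2, with 180 counts, lay far below its mates, and the log2 fold change was -0.14 with it and 0.18 without it, neither called. The uncertainty over copies of this gene applies to both lines.

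CDK9, the kinase, did not pass in either line. OPM2 cells had 43.9, 25.2 and 44.4 CPM with dBRD9-A, against 39.4, 37.8 and 41.8 CPM with DMSO. Replicate 2 was again the low library, and the log2 fold change was -0.07 (95% interval -0.45 to 0.32) with it and 0.14 (adjusted p = 0.21) without it. H929 cells had 61.5, 65.1 and 66.8 CPM with dBRD9-A, against 60.1, 67.1 and 60.7 CPM with DMSO. These overlapped, with a log2 fold change of 0.04 (-0.34 to 0.42).

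The cyclins did not pass either. CCNT1 in OPM2 was at 145, 158 and 143 CPM with dBRD9-A, against 132, 140 and 142 CPM with DMSO, so that the groups just failed to touch (log2 fold change 0.11, 95% interval -0.14 to 0.35). CCNT1 in H929 was at 122, 94.7 and 107 CPM with dBRD9-A, against 101, 109 and 118 CPM with DMSO, which overlapped (-0.01, -0.26 to 0.23). CCNT2, the second cyclin partner of CDK9, was at 55.8, 94.99 and 59.3 CPM in OPM2 with dBRD9-A, against 53.2, 53.6 and 57.2 CPM with DMSO. Only replicate 2 was clearly higher, and the log2 fold change was 0.36 (adjusted p = 0.21) with it and 0.06 (adjusted p = 0.72) without it. In H929 CCNT2 was at 39.4, 28.3 and 37.2 CPM with dBRD9-A, against 34.0, 38.4 and 37.0 CPM with DMSO, and the groups overlapped (-0.06, -0.47 to 0.35).

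LARP7, the 7SK-binding protein, did not pass in either line. In OPM2 it was at 111.1, 232 and 111.5 CPM with dBRD9-A, against 93.6, 91.2 and 93.3 CPM with DMSO. All dBRD9-A libraries were higher, and replicate 2 lay far above its mates. The log2 fold change was 0.71 ± 0.23 (adjusted p = 0.057) with replicate 2 and 0.25 (adjusted p = 0.063) without it, and 7 of 22 alternative settings called it, among them the omission of OPM2 dBRD9-A replicate 1 or 3 (0.88 each). H929 cells had 69.5, 57.5 and 60.2 CPM with dBRD9-A, against 61.1, 50.6 and 55.1 CPM with DMSO, which overlapped (0.17, adjusted p = 0.71).

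**Figure D2:**
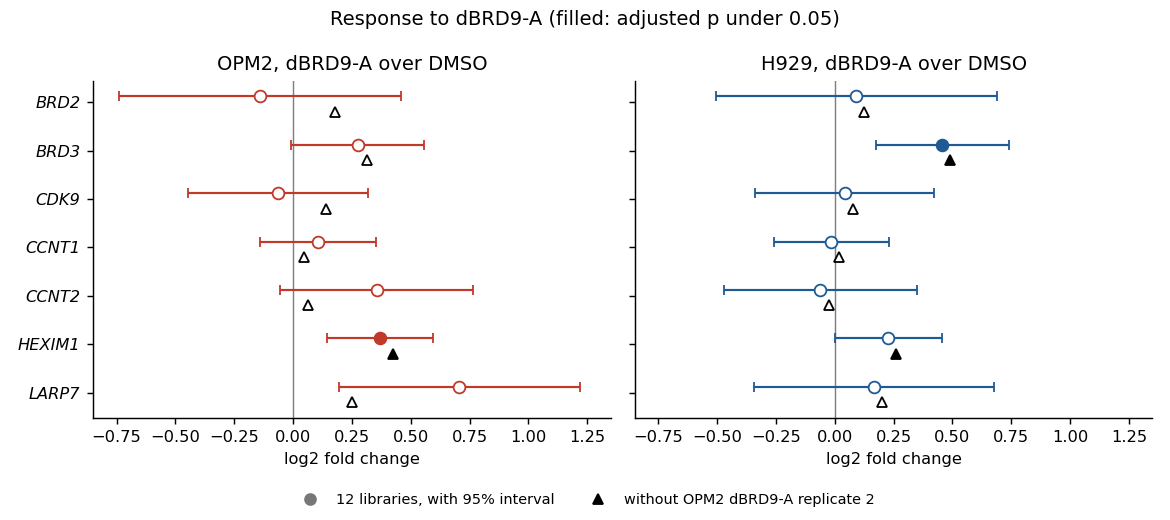
Log2 fold change of each transcript with dBRD9-A over DMSO in OPM2 (left) and H929 (right). Circles with 95% intervals come from the 12 libraries and triangles from the fit without OPM2 dBRD9-A replicate 2, and filled symbols have an adjusted p under 0.05. HEXIM1 in OPM2 (0.37) and BRD3 in H929 (0.46) are filled, and LARP7 and BRD2 in OPM2 shift most between circle and triangle.

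Counted over the 7 members, 1 was called higher in OPM2, where 10.1% of all genes tested were called higher, and none was called lower, against 7.34% of all genes. In H929 1 was called higher, against 7.33% of all genes, and none lower, against 5.67%. No member had an unadjusted p under 0.05 for a decrease, and DESeq2 and limma-voom called none lower. Without OPM2 dBRD9-A replicate 2 the counts of members called higher were 1 in OPM2, against 16.1% of all genes, and 2 in H929, against 19.2%, and none was called lower, against 15.6% and 16.5%. Groups did not overlap, with dBRD9-A higher, for 4 members in OPM2 (BRD3, CCNT1, HEXIM1 and LARP7), against 18.8% of all genes, and for 2 in H929 (BRD3 and HEXIM1), against 22.0%. None lay wholly below DMSO, against 18.9% of all genes in OPM2 and 23.6% in H929. With 7 genes, a count of 1 or 2 lies close to these shares and is no result about the set. The 4 members without overlap in OPM2 lie above the share of 18.8%, and this was not tested. Without OPM2 dBRD9-A replicate 2, every member but CCNT2 lay wholly above DMSO in OPM2. The share of all genes in that setting was not computed, and fewer libraries make a lack of overlap more frequent. Of all calls, 57.8% were higher in OPM2 and 56.4% in H929, and 69.4% and 71.8% when libraries were scaled by size alone. The median log2 fold change of all genes was 0.03 in OPM2 and -0.0019 in H929.

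The responses of the 2 lines were compared with a test of the difference, H929 minus OPM2. No member was called (edgeR, 0 of 7; 0 at an unadjusted p under 0.05, and 0 by DESeq2 or limma-voom), against 0.579% of all genes. The difference was 0.18 (95% interval -0.22 to 0.58) for BRD3 and -0.14 (-0.46 to 0.18) for HEXIM1 on the log2 scale. Calls of BRD3 in H929 and of HEXIM1 in OPM2 were thus not shown to be particular to either line. LARP7 gave -0.54 (-1.26 to 0.18), and -0.05 without OPM2 dBRD9-A replicate 2.

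The 7 deviations of OPM2 dBRD9-A replicate 2 from its mates were in part ordered by GC content. On the log2 scale they were 1.06 for LARP7 (38.1% GC), 0.13 for CCNT1 (40.8%), 0.72 for CCNT2 (43.3%), -0.21 for HEXIM1 (48.2%), -1.44 for BRD2 (51.2%), -0.16 for BRD3 (52.3%) and -0.81 for CDK9 (55.1%). The 3 transcripts of lowest GC content were high in it and the other 4 low. Members that were called, HEXIM1 in OPM2 and BRD3 in H929, were among the 3 with the smallest deviation. A small spread between libraries makes a call easier, so this is no support for the calls. The H929 groups behind the BRD3 call do not hold this library. After removal of a smooth GC trend from each library, HEXIM1 and LARP7 were the 2 members called in OPM2.

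**Figure D3:**
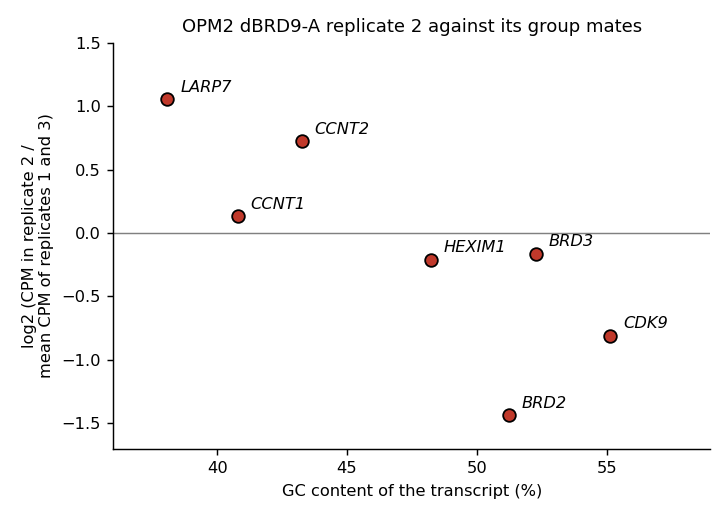
Log2 ratio of the CPM in OPM2 dBRD9-A replicate 2 to the mean CPM of replicates 1 and 3 (y axis) against the GC content of the transcript in percent (x axis), 1 point per member. LARP7 (1.06) and CCNT2 (0.72) lie above 0 and BRD2 (-1.44) and CDK9 (-0.81) below.

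The inhibitor was also set against the kinase and cyclin it acts on, as ratios of counts per transcript length within a library, which need no scaling between libraries. HEXIM1 over CDK9 was 0.917, 1.41 and 0.940 in OPM2 with dBRD9-A, against 0.776, 0.751 and 0.763 with DMSO, with no overlap. In H929 it was 0.622, 0.503 and 0.545 with dBRD9-A, against 0.505, 0.463 and 0.4998 with DMSO, and the groups overlapped by 1 library. HEXIM1 over CCNT1 was 0.792, 0.641 and 0.837 in OPM2 with dBRD9-A, against 0.660, 0.581 and 0.643 with DMSO. Here replicate 2 fell among the DMSO libraries. In H929 that ratio was 0.895, 0.990 and 0.971 with dBRD9-A, against 0.860, 0.815 and 0.738 with DMSO, with no overlap. Both ratios had a higher mean with dBRD9-A in both lines, and neither was tested.

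The ratios of CCNT1 to CCNT2 and of LARP7 to HEXIM1 overlapped between dBRD9-A and DMSO in both lines. CCNT1 over CCNT2 averaged 2.17 ± 0.48 in OPM2 with dBRD9-A and 2.47 ± 0.070 with DMSO, where replicate 2 alone, at 1.62, lay apart. In H929 it averaged 3.04 ± 0.22 with dBRD9-A and 2.93 ± 0.16 with DMSO. LARP7 over HEXIM1 averaged 1.72 ± 0.082 in H929 with dBRD9-A and 1.80 ± 0.19 with DMSO. In OPM2 this ratio was 2.73, 6.47 and 2.65 with dBRD9-A, against 3.03, 3.18 and 2.89 with DMSO. Replicates 1 and 3 thus lay below all DMSO libraries, and replicate 2 alone lay above them.

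**Figure D4:**
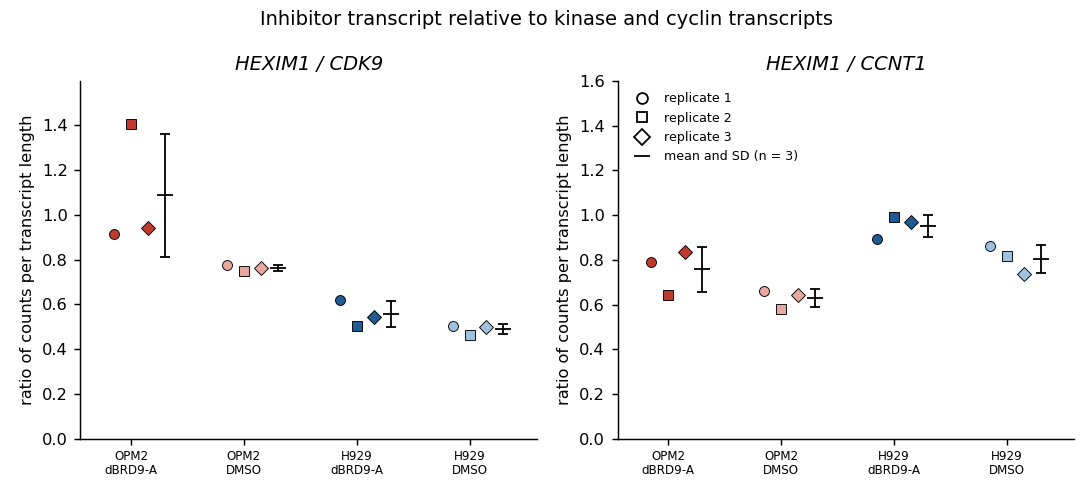
Ratio of HEXIM1 to CDK9 (left) and of HEXIM1 to CCNT1 (right), as counts per transcript length, in each library by group, with the mean and SD of 3 replicates. HEXIM1 over CDK9 is 0.917 or more in OPM2 with dBRD9-A and 0.776 or less with DMSO. The genes differ in GC content (48.2% for HEXIM1, 55.1% for CDK9 and 40.8% for CCNT1).

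Without the drug, the 2 lines differed in most of these genes. H929 exceeded OPM2 in BRD3, at 29.9 ± 2.90 CPM in H929 and 17.9 ± 2.16 CPM in OPM2 (log2 difference 0.74 ± 0.13, adjusted p = 0.00035, edgeR), and in CDK9, at 62.6 ± 3.88 CPM in H929 and 39.7 ± 2.03 CPM in OPM2 (0.66 ± 0.18, adjusted p = 0.0061). Those 2 of 7 compare with 32.6% of all genes called higher in H929. H929 was lower in LARP7, at 55.6 ± 5.26 CPM in H929 and 92.7 ± 1.28 CPM in OPM2 (-0.74, adjusted p = 0.016), in CCNT2, at 36.5 ± 2.25 and 54.6 ± 2.18 CPM (-0.58, adjusted p = 0.018), and in CCNT1, at 109 ± 8.32 and 138 ± 5.05 CPM (-0.34, adjusted p = 0.020). Those 3 of 7 compare with 27.5% of all genes called lower in H929. The kinase was thus higher and both of its cyclins lower in H929. By transcript GC content, the 3 lower genes rank lowest among the members and the 2 higher genes highest. With the GC trend removed, all 5 differences were smaller: 0.59 for BRD3, 0.45 for CDK9, -0.60 for LARP7, -0.50 for CCNT2 and -0.20 for CCNT1. The part of GC content in what remains was not tested. HEXIM1, at 59.2 ± 0.81 CPM in H929 and 58.7 ± 3.45 CPM in OPM2, gave a log2 difference of 0.01 (95% interval -0.21 to 0.24). BRD2 gave 0.23 (-0.37 to 0.83), with the uncertainty over its copies, which need not be the same in both lines. CCNT1 lost its call when the GC trend was removed (adjusted p = 0.087) and when OPM2 DMSO replicate 2 (0.056) or 3 (0.065) or H929 DMSO replicate 1 (0.052) was left out. CCNT2 lost its call without OPM2 DMSO replicate 3 (adjusted p = 0.054), and BRD2 was called by limma-voom alone (0.25, adjusted p = 0.015).

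Genes whose level followed each member most closely over the 12 libraries are given as a description. The libraries share 2 lines, a treatment and OPM2 dBRD9-A replicate 2, so high values arise from few contrasts. HEXIM1 was followed by BCL9L (Pearson r of log2 CPM 0.93, and 0.94 over the 11 libraries without replicate 2) and MARCH8 (0.92 and 0.94). BRD3 was followed by CD28 and SNX19 (both 0.98), CDK9 by UBE2Z and PHF23 (both 0.99), CCNT1 by GSK3B and BICD1 (both 0.98), CCNT2 by USP25 and MPP5 (both 0.99) and LARP7 by FAM200B and CCDC14 (both 0.99). BRD2 was followed by HIF1A-AS1 and CANT1 (both 0.98), and these were 0.87 and 0.83 without replicate 2.

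Around these members, 53 genes of 7 lists were examined, of which 50 were tested. In OPM2 5 were called higher and 1 lower, against 10.1% and 7.34% of all genes, with a median log2 fold change of 0.21 (0.03 over all genes). In H929 1 was called higher and 3 lower, against 7.33% and 5.67% of all genes, with a median of -0.11 (-0.0019 over all genes). Without OPM2 dBRD9-A replicate 2 the counts were 5 higher and 6 lower in OPM2, against 16.1% and 15.6% of all genes, and 9 higher and 11 lower in H929, against 19.2% and 16.5%. The OPM2 median rests in part on that library, and the median of all 50 without it was not computed. In the 3 largest lists the OPM2 median went from 0.30 to 0.05 (other kinases and cyclins), 0.23 to -0.09 (PAF1 and elongation factors) and 0.02 to -0.07 (super elongation complex). That of the BET inhibitor readouts went from 0.49 to 0.40. None was called for the difference of responses by edgeR, DESeq2 or limma-voom (5 at an unadjusted p under 0.05). The shares of all genes given here are also those to set beside each list below. Of all 16408 genes, higher and lower together, DESeq2 called 4092 in OPM2 and 3149 in H929, and limma-voom 7243 and 5910.

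The super elongation complex, which carries P-TEFb to genes, held 10 tested members. Of these, 3 were called higher and 1 lower in OPM2, against 10.1% and 7.34% of all genes, and 1 lower in H929, against 5.67%. Without OPM2 dBRD9-A replicate 2 the counts were 2 higher and 2 lower in OPM2, against 16.1% and 15.6%. In H929 that fit gave 2 higher and 3 lower, against 19.2% and 16.5%. EAF2, a partner of the ELL elongation factors, fell in both lines: it averaged 41.0 ± 6.71 CPM in OPM2 with dBRD9-A and 66.5 ± 4.37 CPM with DMSO (log2 fold change -0.70, adjusted p = 0.029, edgeR), and 17.5 ± 3.77 CPM in H929 with dBRD9-A and 44.4 ± 11.1 CPM with DMSO (-1.34, adjusted p = 0.0015). The scaffolds AFF1 and AFF4 rose in OPM2. AFF1 averaged 724 ± 87.2 CPM in OPM2 with dBRD9-A and 478 ± 35.5 CPM with DMSO (0.60, adjusted p = 0.015), and AFF4 averaged 78.5 ± 14.6 and 51.7 ± 0.79 CPM (0.60, adjusted p = 0.021). Without replicate 2 these were 0.49 and 0.43, both called. In H929 AFF1 gave 0.04 and AFF4 0.28, not called, and without OPM2 dBRD9-A replicate 2 AFF4 was called there too (0.31, adjusted p = 0.039). AFF2, at 1.78 ± 1.58 CPM in OPM2 with dBRD9-A and 0.49 ± 0.19 CPM with DMSO, lost its call without replicate 2 (adjusted p = 0.077). AFF3 was below the filter.

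The list of transcripts used in other cells as readouts of BET inhibitors held 4 genes, chosen with earlier results of these data known. It does not cover all such readouts. All 4 had positive log2 fold changes, with a median of 0.49 in OPM2 and 0.59 in H929, beside 0.03 and -0.0019 over all genes. Without OPM2 dBRD9-A replicate 2 the medians were 0.40 and 0.62. In the main test 1 was called in each line. In the main test 10.1% of all genes were called higher in OPM2 and 7.33% in H929. In each line 3 had an unadjusted p under 0.05, DESeq2 called 3, and limma-voom called 4 in OPM2 and 3 in H929. Of all 16408 genes, higher and lower together, DESeq2 called 4092 in OPM2 and 3149 in H929, and limma-voom 7243 and 5910. SERPINI1, a secreted serine protease inhibitor, averaged 6.97 ± 1.31 CPM in OPM2 with dBRD9-A and 4.89 ± 0.19 CPM with DMSO (0.50, adjusted p = 0.047, and 0.052 without replicate 2), and 16.1 ± 0.78 CPM in H929 with dBRD9-A and 11.6 ± 1.53 CPM with DMSO (0.47, adjusted p = 0.063). The histone gene HIST2H2BE averaged 14.9 ± 4.24 CPM in H929 with dBRD9-A and 6.29 ± 1.14 CPM with DMSO (1.24, adjusted p = 0.0041), and 34.6 ± 6.31 CPM in OPM2 with dBRD9-A and 26.1 ± 3.20 CPM with DMSO (0.41, adjusted p = 0.21). Without OPM2 dBRD9-A replicate 2, 1 was called in OPM2 and 3 in H929, against 16.1% and 19.2% of all genes called higher.

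Of the PAF1 complex and other elongation factors, none of 10 was called in OPM2 (1 at an unadjusted p under 0.05, 0 by DESeq2 and 2 by limma-voom). In H929 2 of 10 fell, against 5.67% of all genes called lower. Both were subunits of the histone chaperone FACT: SSRP1 averaged 285 ± 8.51 CPM in H929 with dBRD9-A and 386 ± 18.2 CPM with DMSO (-0.44, adjusted p = 0.022), and SUPT16H averaged 331 ± 31.4 and 466 ± 53.9 CPM (-0.49, adjusted p = 0.044). In the fit without OPM2 dBRD9-A replicate 2, SSRP1 was called lower in OPM2 as well (-0.36). Among 13 other transcription kinases and cyclins, CCNL1, a cyclin linked to splicing, rose in OPM2, at 127 ± 21.03 CPM with dBRD9-A and 97.7 ± 3.73 CPM with DMSO (0.38, adjusted p = 0.044), and 0.22 without replicate 2, still called. None of the 13 was called in H929 (2 at an unadjusted p under 0.05; 2 by each of DESeq2 and limma-voom). With that library left out, the 13 gave 1 call higher and 2 lower in OPM2 and 1 each way in H929.

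Of the other genes of the 7SK particle and of P-TEFb control, none of 3 tested was called in either line by edgeR. In H929 2 had an unadjusted p under 0.05, and DESeq2 called 1 and limma-voom 3. In OPM2 none had, and DESeq2 called 0 and limma-voom 1. HEXIM2, the paralog of HEXIM1, averaged 11.7 ± 2.02 CPM in H929 with dBRD9-A and 8.51 ± 1.09 CPM with DMSO (0.46, adjusted p = 0.12, and 0.49, called, without OPM2 dBRD9-A replicate 2), and gave 0.25 in OPM2 on the log2 scale, not called in either fit. PPM1G, a phosphatase that frees P-TEFb from 7SK, averaged 174 ± 5.99 CPM in H929 with dBRD9-A and 248 ± 18.6 CPM with DMSO (-0.52, adjusted p = 0.086), and without OPM2 dBRD9-A replicate 2 it was called lower in both lines (-0.42 in OPM2 and -0.48 in H929). In that fit all 3 genes passed in H929, 1 higher and 2 lower, MEPCE at -0.32. The 7SK RNA was not analysed here.

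Among the pausing factors DSIF and NELF, none of 5 tested was called in either line (0 at an unadjusted p under 0.05; 0 by DESeq2, and by limma-voom 0 in OPM2 and 1 in H929). NELFA and NELFCD gave log2 fold changes of -0.08 and -0.22 in OPM2 and -0.34 and -0.14 in H929. NELFE had at most 1 count in any library and was below the filter. How reads that match several copies were counted is not known, so this need not mean absent RNA, and it was not tested. NELFA was the only one called when OPM2 dBRD9-A replicate 2 was left out, lower in H929 (-0.31). Of 5 partners of the BET extraterminal domain none was called, with 0 at an unadjusted p under 0.05 in OPM2 and 3 in H929, and 1 in each line by DESeq2, and 2 in OPM2 and 3 in H929 by limma-voom. CHD4, a chromatin remodeller, averaged 597 ± 40.8 CPM in H929 with dBRD9-A and 487 ± 22.7 CPM with DMSO (0.29, adjusted p = 0.088), and ATAD5 39.5 ± 6.74 and 54.5 ± 4.94 CPM (-0.46, adjusted p = 0.087). In the fit without that library both were called in H929 (0.33 and -0.43), and the list had 1 call higher in OPM2 and 2 higher and 2 lower in H929.

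**Figure D5:**
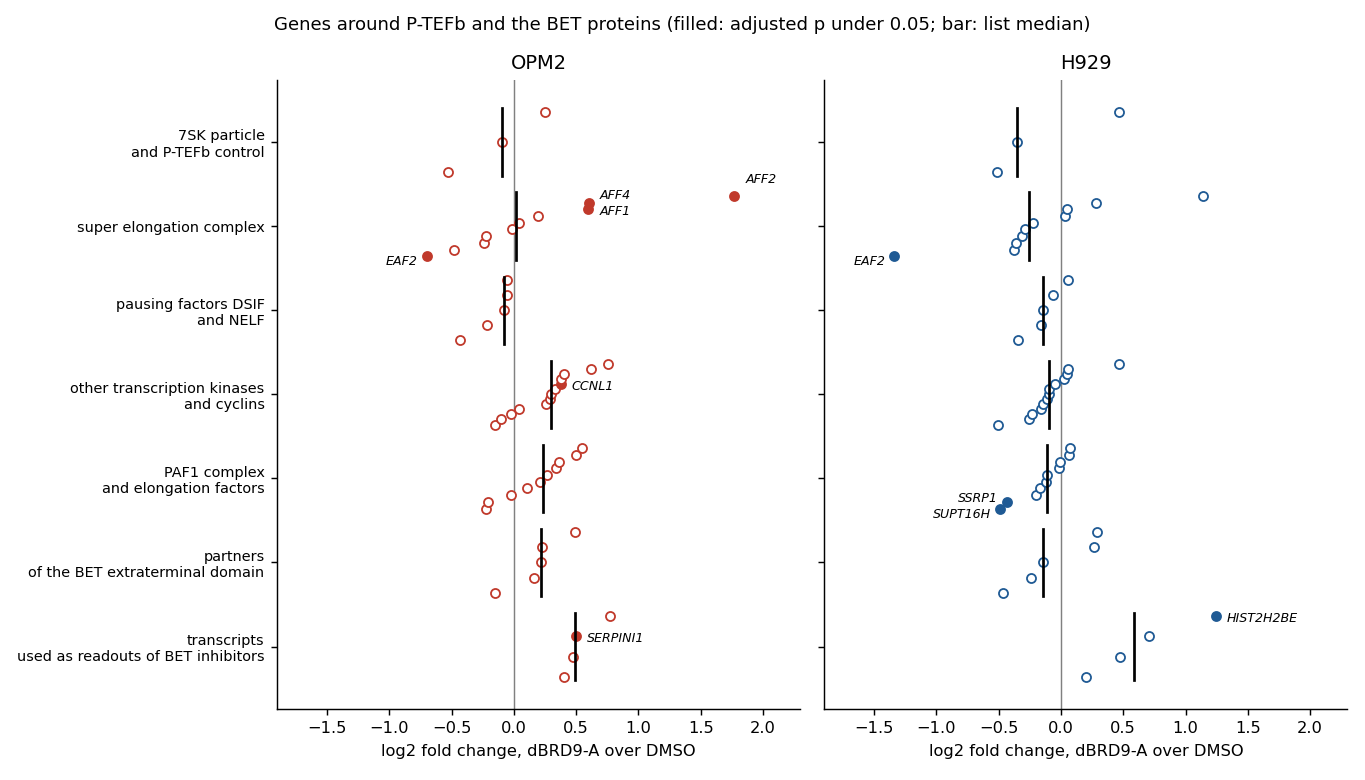
Log2 fold change with dBRD9-A over DMSO of the 50 tested genes of 7 lists in OPM2 (left) and H929 (right), 1 circle per gene, filled and named where the adjusted p is under 0.05, with a bar at each list's median. The values come from the fit with OPM2 dBRD9-A replicate 2. EAF2 is low in both lines (-0.70 and -1.34) and the 4 listed BET inhibitor readouts lie above 0 in both.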

How the data were processed

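Poly(A)-selected, stranded Illumina libraries of OPM2 and H929 cells were made, per the labels' protocols. STAR, featureCounts, hg19 and GRCh37 are named without versions, per the submitters' processing notes. No source used here gives the strand setting, so antisense partners may share reads. Per the file headers, each of the 12 files gives 51780 transcripts with a count, FPKM and TPM. The deposited counts are whole and not normalised. The deposited FPKM values, counts scaled by length and total by the authors, served only to recover transcript lengths. The deposited TPM values were not used, and TPM was recomputed over 1 row per gene.

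Genes were filtered with filterByExpr by group, scaled with TMM factors and tested in R 4.3.3 with edgeR 4.0.16 (quasi-likelihood, 4 group means, 8 residual degrees of freedom). P-values were Benjamini-Hochberg adjusted over 16408 genes, and those under 0.05 were called. CPM values are TMM-scaled and given as mean ± SD (n = 3), and log2 CPM uses a prior count of 0.25. The procedure was tested on simulated data in which all genes had the same dispersion. Those data held no library that stood apart and no GC trend, so they do not check how the procedure handles these. The labels do not say whether the replicates are separate cultures, and p-values cover only the spread between libraries, which may be technical. Precision follows the counts, and intervals cover the spread between libraries.

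The members, the 7 lists around them and the marker lists were chosen with earlier results of these data known. The text names all 7 members, BRD9, and of each list up to 3 called genes with the smallest p in either line, or 2 where none was called, plus for each member the 2 genes with the highest correlation among those averaging at least 1 log2 CPM. AFF2, MEPCE, the marker genes and the list genes given as absent or filtered were added after their values were seen. Alternatives were RLE factors, library size alone, DESeq2 1.42.0, limma-voom (limma 3.58.1) with library weights, no low-count filter, 1 CPM in 3 libraries, each line alone, omission of each library, a block for the replicate number, counts summed over rows, and removal of a GC trend (loess span 0.3; GC content was found for 96.8% of genes).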

Additional observations from a re-analysis of the deposited data

How the results depend on the processing

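In OPM2 the count of members called, 1, became 2 with library size alone, DESeq2, the 1 CPM filter or removal of the GC trend, 3 under limma-voom, and 0 with no low-count filter, with the line fitted alone or with the replicate block; leaving out 1 library gave 0 to 1. In H929 it was 1, and 2 with DESeq2 or limma-voom, 0 with no filter or with the replicate block, and 0 to 2 with 1 library left out. Between the lines in DMSO it was 5, and 6 with limma-voom, which added BRD2, 4 with the GC trend removed, which lost CCNT1, and 3 to 5 with 1 library left out. The difference of responses gave 0 in every setting run.

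Signs turned only in values that were not called. In OPM2 BRD2 became 0.15 with limma-voom (-0.40 to 0.18 with 1 library left out), CDK9 0.15 with limma-voom and 0.03 without the GC trend (-0.20 to 0.14), and CCNT1 -0.02 without the GC trend. In H929 CCNT1 became 0.03 with RLE factors, DESeq2 or the 1 CPM filter, 0.08 with library size alone and 0.01 summed over rows (-0.08 to 0.11), and CCNT2 0.03 with library size alone (-0.12 to 0.11). For the difference, limma-voom gave -0.04 for BRD2 (-0.05 to 0.49) and -0.08 for CDK9 (-0.06 to 0.24), and the GC trend 0.02 for CCNT1 (-0.16 to 0.03). HEXIM1 between the lines became -0.11 with library size alone and -0.01 with no filter or summed over rows (-0.03 to 0.05). The cause of these shifts was not tested.

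Library size alone moved the median log2 fold change of all genes to 0.07 in OPM2 and 0.09 in H929, and the share of calls that were higher to 69.4% and 71.8%, against 57.8% and 56.4%. Over all settings 871 to 7243 genes were called in OPM2 (main value 2857), 812 to 5946 in H929 (2134) and 26 to 882 for the difference (95). For libraries with equal replicate numbers, the correlation of their deviations from the group means was 0.26, -0.03 and -0.06 in OPM2 and -0.03, -0.20 and -0.12 in H929. Deviations from a mean of 3 are tied to each other and carry the GC trends, so these values cannot settle whether libraries are paired. With the replicate block, HEXIM1 in OPM2 (adjusted p = 0.086, edgeR) and BRD3 in H929 (0.098) were not called. The 24524193 counts of OPM2 dBRD9-A replicate 2, 180 of them for BRD2, limit the precision there.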
